A study of Mus musculus with 6 samples.

Results

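The 10 genes described here belong to the NF-kB system and were measured in mouse neural stem cells given Cre recombinase or green fluorescent protein. They are the 5 transcription factor subunits Nfkb1, Nfkb2, Rel, Rela and Relb, the inhibitors Nfkbia, Nfkbib and Nfkbie, the ubiquitin-editing enzyme Tnfaip3, and Vcam1, a cell adhesion molecule of the immunoglobulin superfamily. Members were taken by gene symbol, and all 10 were found among the 23152 genes of the array, with 138 probe sets between them (8 to 26 per gene). A probe set is a group of short DNA probes against 1 stretch of a transcript. The cells came from the cortex at embryonic day 14.5, and the study used 3 cell lines, numbered 2, 7 and 8. From each line, 1 culture received an adenovirus with Cre (Ad-Cre), which per the series design induces mutant IDH, and 1 received an adenovirus with the fluorescent protein (Ad-GFP) as the control, each at 100 MOI (infectious units per cell) and washed after 24 hours. The series title names the mutation as IDH1-R132H, a change in isocitrate dehydrogenase 1 found in gliomas. All 6 cultures thus met a virus, and because the labels describe no culture with Cre and without the mutant allele, Cre and the mutant enzyme cannot be told apart here. The labels do not give the promoter that drives Cre, the mouse strain, or whether the lines come from separate embryos.

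NF-kB proteins are dimeric transcription factors that wait in the cytoplasm, bound by inhibitors of the IkB family, until kinases of the IKK complex mark those inhibitors for destruction. Freed dimers enter the nucleus, bind DNA elements called kappaB sites and switch on genes of inflammation, survival and adhesion. Several members are themselves known targets, so that newly made Nfkbia and Tnfaip3 end the response, and Vcam1 is a classic target in inflamed endothelium. In the brain Vcam1 also marks a set of adult neural stem cells and helps to anchor them in their niche.

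The known feedback makes the promoters of these genes worth showing. RefSeq windows of the mouse assembly GRCm38.p6 were at hand for 7 of the members, in 10 windows of 300 bases, each with 250 bases before a transcript start and 50 after it. They were searched on both strands for the kappaB consensus, a motif of 10 bases. Of the 7 members, 5 had at least 1 match (Nfkbia, Nfkb2, Rel, Nfkbie and Tnfaip3), and Nfkbib and Rela had none. Nfkb1, Relb and Vcam1 had no window and were not searched. By window, 7 of the 10 held a match, as did 4.505% of all 32851 windows in the table. The windows are not all separate, since the later Nfkb2 windows overlap and share a match. A share of all genes with a match was not computed. A match is a description of the letters and shows no binding. The 250 bases before the start are printed for Nfkbia and Nfkb2, the NF-kB genes with the largest differences below, and for Rel and Tnfaip3, which hold matches but whose tests gave high p-values. Capitals mark the kappaB matches, and each run is 5′ to 3′ on the gene's strand.
Nfkbia, chr12:55492648-55492897, minus strand: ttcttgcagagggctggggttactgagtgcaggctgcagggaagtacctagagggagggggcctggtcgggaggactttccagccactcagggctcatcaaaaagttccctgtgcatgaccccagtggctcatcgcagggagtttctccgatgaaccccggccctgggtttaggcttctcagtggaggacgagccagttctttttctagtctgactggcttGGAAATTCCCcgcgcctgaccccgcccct
Nfkb2, chr19:46304487-46304736, plus strand: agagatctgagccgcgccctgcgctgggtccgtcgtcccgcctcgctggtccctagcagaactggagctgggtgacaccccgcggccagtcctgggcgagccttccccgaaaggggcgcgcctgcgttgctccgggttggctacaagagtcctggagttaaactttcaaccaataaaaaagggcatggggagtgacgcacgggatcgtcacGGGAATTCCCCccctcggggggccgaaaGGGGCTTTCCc
Rel, chr11:23770970-23771219, minus strand: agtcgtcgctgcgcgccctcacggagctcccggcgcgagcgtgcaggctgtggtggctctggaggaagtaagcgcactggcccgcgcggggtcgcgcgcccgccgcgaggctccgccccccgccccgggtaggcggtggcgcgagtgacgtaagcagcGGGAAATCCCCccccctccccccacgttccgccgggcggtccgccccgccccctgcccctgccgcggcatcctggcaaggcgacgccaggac
Tnfaip3, chr10:19015411-19015660, minus strand: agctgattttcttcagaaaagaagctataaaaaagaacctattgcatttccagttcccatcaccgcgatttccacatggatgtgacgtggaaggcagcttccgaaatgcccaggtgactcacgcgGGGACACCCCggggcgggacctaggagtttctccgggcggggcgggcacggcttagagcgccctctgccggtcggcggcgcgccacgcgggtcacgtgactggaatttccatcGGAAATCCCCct

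The match of Nfkbia lay 29 to 20 bases before the start and reads GGGAATTTCC on the other strand. Nfkb2 had 2 overlapping matches, from 39 and from 38 bases before the start, and another 11 to 2 bases before it. Rel had a pair of overlapping matches that began 92 and 91 bases before the start. In Tnfaip3 the matches began 125 and 12 bases before it. Nfkb2 and Tnfaip3 have further starts, and of these the later Nfkb2 windows held matches and the other Tnfaip3 window held none.

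Before the results, 3 facts about the arrays bear on them. The Ad-Cre array of line 2 stood apart, with a Pearson correlation of 0.969 to 0.976 to the others across genes, against 0.988 to 0.996 among the other 5. On it the proliferation marker Mki67 read 10.10, against 12.43 to 12.84 elsewhere, and the astrocyte filament Gfap 11.27, against 7.48 to 8.33. Gfap does not stand for astrocyte genes as a set. Over 8 of them the median difference between Ad-Cre and Ad-GFP in line 2 was 0.046. The description field of the labels carries marks that run one way in lines 2 and 7 and the opposite way in line 8, while titles and transduction labels match each other, so the main results are also given with the virus labels of line 8 exchanged. Values are log2 signals, on which 1 unit is a doubling, and array signal is not comparable between genes. Neural stem cell markers were bright on every array, with a mean over 10 genes between 11.58 and 11.95.

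With Ad-Cre, Vcam1 read lower and Nfkbia and Nfkb2 read higher than with Ad-GFP in each of the 3 lines. The differences were 2.46-fold for Vcam1, 1.87-fold for Nfkbia and 1.46-fold for Nfkb2. Rela and Relb were higher by smaller amounts. Nfkb1, Rel, Nfkbib, Nfkbie and Tnfaip3 went different ways in different lines. None of these differences passed limma's test with Benjamini-Hochberg adjustment over all genes at 0.05, in which 0% of genes did.

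**Figure D1:**
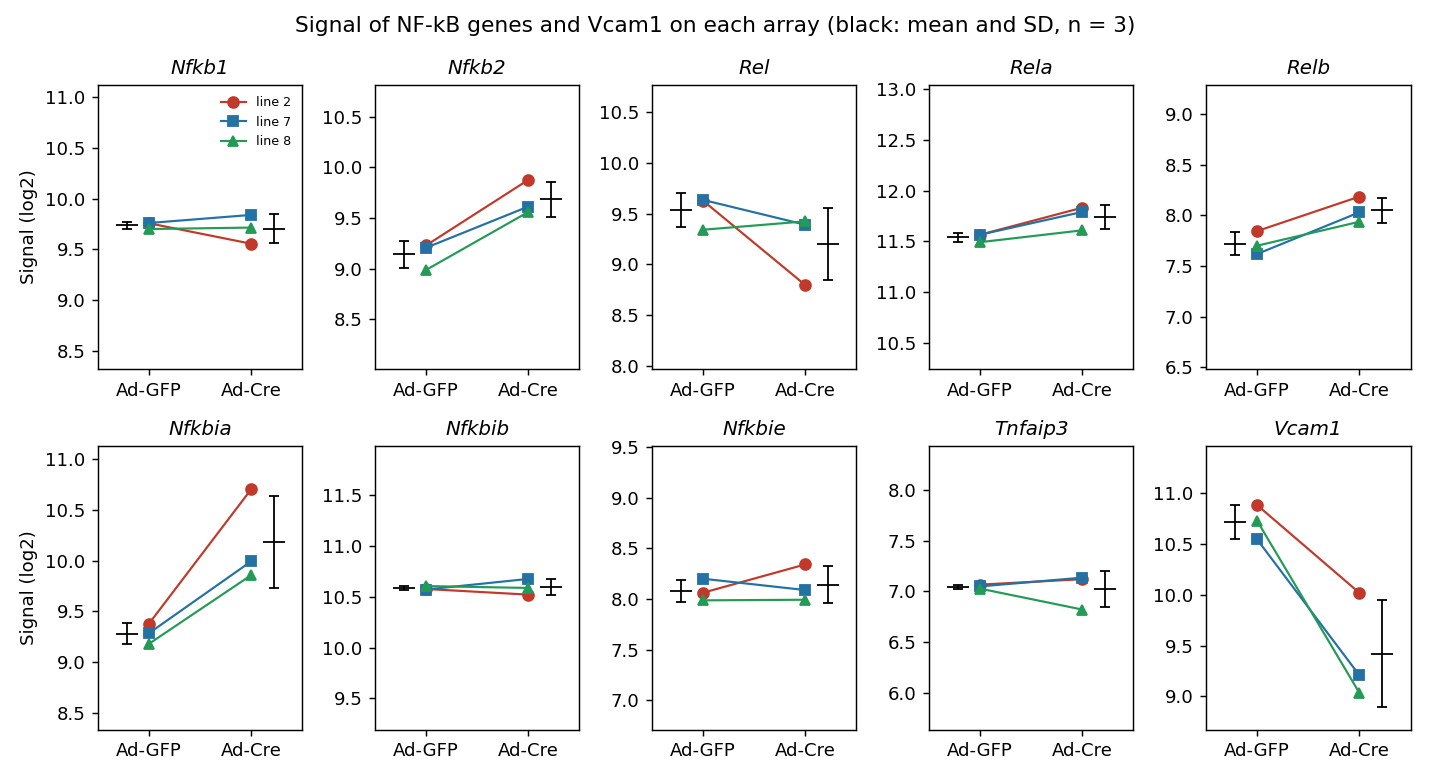
Signal (log2, vertical axis) of each gene with Ad-GFP and Ad-Cre, 1 point per array, joined within a cell line, with the mean and SD of the 3 arrays in black. Every panel spans the same range; the lines of Nfkbia, Nfkb2, Rela and Relb all slope up and those of Vcam1 all slope down.

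Counted over the 10 genes, 4 were higher in all 3 lines, as were 22.1% of all genes, and 1 was lower in all 3, as were 16.2% of all genes. The same 4 had Ad-Cre arrays that all lay above all Ad-GFP arrays, which held for 12% of all genes, and for Vcam1 all lay below, which held for 8.89%. At an unadjusted p under 0.05, 4 members were higher (7.04% of all genes) and 1 was lower (5.58%). The median difference of the members was 0.034, beside 0.025 over all genes. With 10 genes chosen with earlier results known, these counts describe the list and do not test it.

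Among the inhibitors, Nfkbia differed most. It encodes IkB-alpha, the inhibitor that is destroyed and made anew in each round of signalling. On the Ad-GFP arrays it read 9.38, 9.28 and 9.18 in lines 2, 7 and 8, and on the Ad-Cre arrays 10.70, 9.99 and 9.86. The groups did not overlap, and the Ad-Cre array of line 2 was the highest of the 6. The mean went from 9.28 ± 0.10 to 10.18 ± 0.46 (SD, n = 3), a difference of 0.90 ± 0.16 (SE, limma; unadjusted p = 0.00275, adjusted p = 0.144). By line the difference was 1.33, 0.71 and 0.68. Line 2 thus held the largest difference and most of the spread of the Ad-Cre group. Without line 2 the difference was 0.69 ± 0.09, with an adjusted p of 0.0104 by limma, a fit in which 5.23% of all genes were called.

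The probe sets of Nfkbia went one way. Of its 8 probe sets, 7 were higher in all 3 lines, and each of these had an unadjusted p under 0.05. Over all probe sets on the array 17.5% were higher in all 3 lines and 16.5% were lower, shares to set beside the probe set counts of every gene below. The exception, at -0.16, was the dimmest, with a mean signal of 4.91, under the lower quartile of probe sets (6.59). The brightest, at 12.04, differed by 0.86 ± 0.14.

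Nfkbib and Nfkbie, the related inhibitors IkB-beta and IkB-epsilon, showed no common direction. Nfkbib read 10.58, 10.57 and 10.61 with Ad-GFP and 10.52, 10.68 and 10.59 with Ad-Cre, so that the groups overlapped, with a span of 0.16 in the wider one. Its difference of 0.010 had a 95% interval of -0.22 to 0.24 (limma adjusted p = 0.972). Nfkbie read 8.06, 8.20 and 7.99 with Ad-GFP and 8.34, 8.09 and 7.99 with Ad-Cre, higher in line 2 (0.28), lower in line 7 (-0.11) and nearly level in line 8. The interval of its difference of 0.058 was -0.24 to 0.36 (adjusted p = 0.860). These intervals leave room for differences of that size in either direction, but the interval of Nfkbia, 0.48 to 1.33, lay above both. Whether the inhibitors differed from one another was not tested.

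Tnfaip3 encodes A20, which removes ubiquitin chains that carry the signal to IKK. Tnfaip3 read 7.07, 7.05 and 7.03 with Ad-GFP and 7.12, 7.14 and 6.82 with Ad-Cre. The difference of -0.022 (95% interval -0.28 to 0.24; limma adjusted p = 0.941) combined slightly higher values in lines 2 and 7 with a lower one in line 8. Of its 12 probe sets 1 was higher and 1 lower in all 3 lines, as were 17.5% and 16.5% of all probe sets. In signal, 3 of the 12 lay under the lower quartile.

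Of the subunits, Nfkb2 had the largest difference. It encodes the p100 precursor, itself an inhibitor, from which the p52 subunit of the non-canonical pathway is cut. It read 9.23, 9.21 and 8.99 with Ad-GFP and 9.88, 9.61 and 9.56 with Ad-Cre in lines 2, 7 and 8. The lowest Ad-Cre array exceeded the highest Ad-GFP array, and line 2 was again highest. The mean went from 9.14 ± 0.13 to 9.68 ± 0.17 (SD, n = 3), a difference of 0.54 ± 0.10 (SE, limma; unadjusted p = 0.00343, adjusted p = 0.158). The lines were close to each other, at 0.65, 0.41 and 0.57. Of 20 probe sets 12 were higher in all 3 lines and 0 were lower in all 3. Of all probe sets 17.5% were higher and 16.5% lower. Without line 2 the difference was 0.49 ± 0.10 (limma adjusted p = 0.0434), where 5.23% of all genes were called. It was 0.61 without line 7 and 0.53 without line 8 (limma adjusted p = 0.453 and 0.549).

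Relb, the partner of p52 in the non-canonical pathway, was higher by a smaller amount. It read 7.84, 7.62 and 7.70 with Ad-GFP and 8.18, 8.03 and 7.94 with Ad-Cre in the same order. The groups again did not overlap. The difference was 0.33 ± 0.09 (SE, limma; unadjusted p = 0.0171, adjusted p = 0.283), and 0.34, 0.41 and 0.24 by line. Its probe sets were less even than those of Nfkb2. Only 6 of 18 were higher in all 3 lines, their differences ran from -0.49 to 0.88, and the brightest read 0.14 and was lower in line 2.

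Rela encodes p65, the subunit of the canonical dimer that activates transcription. It read 11.56, 11.57 and 11.49 with Ad-GFP and 11.83, 11.79 and 11.61 with Ad-Cre. The groups did not overlap, although the Ad-Cre array of line 8 lay close above the Ad-GFP arrays. The difference of 0.20 ± 0.08 (SE, limma) had an unadjusted p of 0.0490 and an adjusted p of 0.394. Small as it was, 10 of 11 probe sets were higher in all 3 lines, and the other read -0.00085 with line 7 lower. The brightest probe set alone read 0.11 (limma unadjusted p = 0.285).

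Nfkb1, the precursor of the p50 subunit that pairs with p65, had no common direction over the lines. It read 9.76, 9.76 and 9.70 with Ad-GFP and 9.56, 9.84 and 9.72 with Ad-Cre, lower in line 2 and higher in lines 7 and 8. The difference was -0.036, with a 95% interval of -0.31 to 0.24 (limma adjusted p = 0.907). Of its 26 probe sets 4 were higher and 2 lower in all 3 lines, as were 17.5% and 16.5% of all probe sets. Rel encodes c-Rel, a subunit best known in lymphocytes. It read 9.63, 9.63 and 9.34 with Ad-GFP and 8.79, 9.39 and 9.42 with Ad-Cre. The mean difference of -0.33 ± 0.19 (SE; 95% interval -0.83 to 0.17; limma adjusted p = 0.538) rested on line 2, at -0.83, since line 7 read -0.24 and line 8 0.08. Without line 2 it was -0.08. Of 12 probe sets 11 had a negative mean and 5 were lower in all 3 lines.

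**Figure D2:**
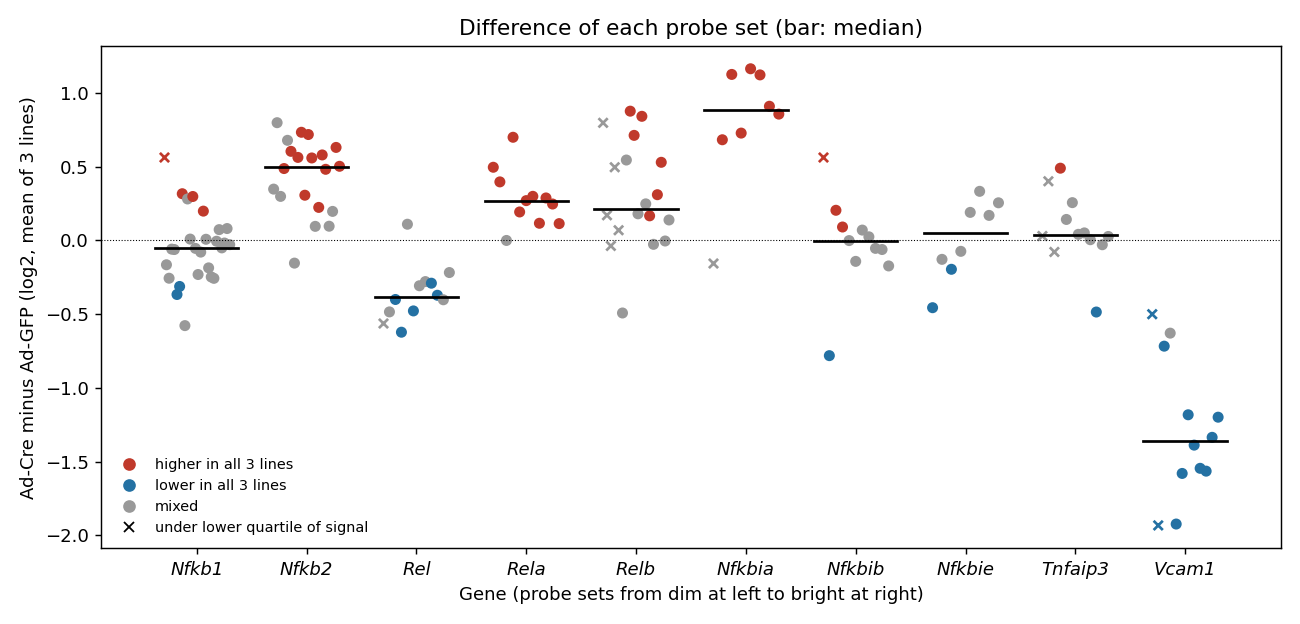
Difference between Ad-Cre and Ad-GFP (log2, mean of 3 lines, vertical axis) for each of the 138 probe sets, by gene and ordered from dim to bright, with the median as a bar. Nfkbia (7 of 8) and Rela (10 of 11) are mostly red, higher in all 3 lines, and Vcam1 (11 of 12) is mostly blue, lower in all 3.

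Vcam1 had the largest difference of the 10 genes and the smallest p, 181st among all genes. Its product binds integrins of the alpha-4 class on other cells. It read 10.89, 10.55 and 10.73 with Ad-GFP and 10.02, 9.21 and 9.03 with Ad-Cre in lines 2, 7 and 8. The groups did not overlap, and the array of line 2 was the highest in each group. The mean went from 10.72 ± 0.17 to 9.42 ± 0.53 (SD, n = 3), a difference of -1.30 ± 0.18 (SE, limma; unadjusted p = 0.000807, adjusted p = 0.102). By line it was -0.87, -1.34 and -1.70, so that line 2, which led for Nfkbia, had the smallest difference here. Without line 2 the difference was -1.52 ± 0.11 (limma adjusted p = 0.00182), where 5.23% of all genes were called. It was -1.28 without line 7 and -1.10 without line 8 (limma adjusted p = 0.359 and 0.310). All 12 probe sets had a negative mean, from -1.93 to -0.50, and 11 were lower in all 3 lines. The brightest read -1.20 ± 0.20. In bulk RNA, fewer cells with Vcam1 and less Vcam1 RNA per cell cannot be told apart.

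The exchange of the line 8 labels mattered for these genes. With it, Vcam1 read -0.17, Nfkbia 0.45 and Nfkb2 0.16, and 0 members had an unadjusted p under 0.05. The directions of these 3 genes did not turn. With the labels as titled, the differences of line 8 correlated over the 23152 genes with those of line 2 (Pearson r = 0.397) and line 7 (0.556), as did lines 2 and 7 with each other (0.371), and an exchange turns the sign of the first pair of values. Which label is right was not tested. Between cell lines, apart from the virus, 0 members passed limma's F test for lines, which 0.00864% of all genes did, and the line means of a member spanned at most 0.58 units (Vcam1).

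Markers of other cell types moved beside Vcam1, and their part in its difference was not tested. Over 8 oligodendrocyte lineage genes the mean signal was 10.22 to 10.34 on the Ad-GFP arrays and 9.23 to 9.42 on the Ad-Cre arrays, and 3 of the 8 were lower at an unadjusted p under 0.05. These 3 were Gpr17 (-2.86), Pdgfra (-2.72) and Ugt8a (-1.46). The differences of Olig1, Olig2, Cspg4, Sox10 and Mbp ran from -0.24 to 0.01, and the median of the list was -0.20. Over 7 neuronal genes the mean signal was 9.71 to 9.90 with Ad-GFP and 8.84 to 9.21 with Ad-Cre, with 3 lower and 1 higher. Over 8 astrocyte genes it was 9.91 to 10.16 and 9.18 to 10.27, with 3 lower and 1 higher. Aldh1l1 (-1.66), Aqp4 (-1.36) and Gja1 (-0.77) were the lower ones and S100b (0.61) the higher one. The mean of 10.27 was that of line 2, where Gfap was high but the list's median difference was 0.046. Over the 10 neural stem cell genes the mean signal was 11.83 to 11.95 and 11.58 to 11.77, with 4 lower and 1 higher. Over 7 genes of dividing cells it was 11.86 to 11.92 with Ad-GFP and 9.22, 11.51 and 11.56 with Ad-Cre in lines 2, 7 and 8. All 7 were lower in all 3 lines, with median differences of -2.56, -0.20 and -0.35 by line, and 1 of them was lower at that p. Over all genes 7.04% were higher and 5.58% lower at that p, and 16.2% were lower in all 3 lines.

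Markers of microglia, endothelium and pericytes, cell types known for Vcam1 or NF-kB activity, included single genes with differences that their list means do not show. The mean over 11 microglia and macrophage genes was 7.18 to 7.19 with Ad-GFP and 7.27 to 7.33 with Ad-Cre, with 1 gene higher at an unadjusted p under 0.05 (Cd68, at 0.42), and Ptprc and Aif1 lay under the lower quartile of genes (6.34). Over 8 endothelial genes it was 6.52 to 6.62 and 6.61 to 6.79, with 1 higher, Emcn, at 0.57, although Emcn lay under that quartile. Over 10 pericyte and fibroblast genes it was 7.27 to 7.51 and 7.30 to 7.31, with 2 higher (Foxc1 at 0.83 and Col1a1 at 0.33) and 2 lower (Pdgfrb at -0.61 and Acta2 at -2.35), and Rgs5, Dcn, Lum and Tbx18 lay under it. Acta2, the smooth muscle actin, thus differed by more than Vcam1, with 11.28, 12.08 and 10.12 on the Ad-GFP arrays and 8.25, 8.93 and 9.25 on the Ad-Cre arrays. Over all genes 7.04% were higher and 5.58% lower at an unadjusted p under 0.05. The part of these marker genes in the difference of Vcam1 was not tested. Array signals do not reach 0, so absence cannot be read from them.

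The rest of the pathway was read from lists of ligands, receptors, kinases, regulators and targets. In these lists 0 genes passed over all genes (limma). At an unadjusted p under 0.05, 7.04% of all genes were higher and 5.58% lower, shares to set beside each list count below. Of 11 ligands, 1 was lower and 0 were higher at an unadjusted p under 0.05, and the list's median difference was 0.06. The lower one was Il18, a cytokine of the interleukin-1 family, which read 11.27, 11.18 and 11.105 with Ad-GFP and 10.54, 10.38 and 10.61 with Ad-Cre. Its difference was -0.67 ± 0.10 (SE; adjusted p = 0.107), with no overlap. The inflammatory cytokines Tnf and Il1b were dim, with Tnf, which falls outside the naming rule, at 5.99 to 6.15 with Ad-GFP and 5.91 to 6.37 with Ad-Cre. Il1b differed by 0.18, Tnfsf14 by 0.17 and Tnfsf11 by -0.08, with adjusted p of 0.601 to 0.716.

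Of 22 receptors and adaptors, 2 were higher and 1 lower (median 0.06). Tnfrsf12a, the receptor of the cytokine TWEAK, which feeds the non-canonical pathway, read 8.62, 8.85 and 8.75 with Ad-GFP and 9.24, 9.95 and 9.73 with Ad-Cre. All Ad-Cre arrays lay above all Ad-GFP arrays, with a difference of 0.90 ± 0.13 (SE; limma adjusted p = 0.102). Ripk1, a kinase that relays signals of the TNF receptor, differed by 0.38 ± 0.12 (adjusted p = 0.320), and Tlr3, a sensor of double-stranded RNA, by -0.44 ± 0.13 (adjusted p = 0.303). Tnfrsf1a, the main TNF receptor, read 0.21 (adjusted p = 0.456).

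In the IKK complex and its upstream kinases, of 11 genes 0 had an unadjusted p under 0.05, with a median of 0.02. Ikbke differed by 0.18, Ikbkg, the scaffold of the complex, by 0.16, Map3k8 by 0.15 and Map3k14, the kinase of the non-canonical pathway, by 0.23, where line 2 alone was high. Of 17 atypical IkB proteins and regulators, 1 was higher and 0 were lower (median 0.08). That was Nfkbiz, a nuclear IkB protein, which read 9.43, 9.13 and 9.004 with Ad-GFP and 9.94, 9.60 and 9.33 with Ad-Cre. The groups overlapped because the lines differed in level, but each line was higher, by 0.43 ± 0.10 (SE; limma adjusted p = 0.208). Otulin, listed on the array under the synonym Fam105b, differed by 0.25, Nfkbid by 0.22 and Tnip1 by 0.19.

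Classic target genes did not share a direction. Of 32, 3 were higher and 2 lower at an unadjusted p under 0.05, with a median of 0.08. Gadd45b, a stress-induced regulator of MAP kinases, read 9.11, 9.06 and 8.82 with Ad-GFP and 11.55, 9.55 and 9.69 with Ad-Cre. Its difference of 1.26 ± 0.39 (SE; limma adjusted p = 0.311) was largest in line 2, and without line 2 it was 0.68 ± 0.12. Bcl2l1, which blocks apoptosis, was higher by 0.35 ± 0.11 (adjusted p = 0.310). The prostaglandin enzyme Ptgs2 and the gene Tnfaip2 read -0.60 ± 0.18 and -0.42 ± 0.13 (adjusted p = 0.309 and 0.299). The third higher gene, the chemokine Ccl2, at 0.68 ± 0.21, falls outside the naming rule and was named after its value was seen. Icam1, an adhesion target often read together with Vcam1 and also outside that rule, read 7.63, 7.62 and 7.64 with Ad-GFP and 7.63, 7.63 and 7.71 with Ad-Cre, a difference of 0.021 with a 95% interval of -0.20 to 0.24.

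The adhesion genes around Vcam1 went both ways. Of 16, 3 were higher and 2 lower (median 0.09). Alcam, a related immunoglobulin-type adhesion molecule, read 11.43, 11.21 and 10.79 with Ad-GFP and 10.51, 10.16 and 10.21 with Ad-Cre. Its groups did not overlap, and it differed by -0.85 ± 0.12 (SE, limma; adjusted p = 0.102). Ncam2, a neural adhesion molecule, differed by -0.65 ± 0.13 (adjusted p = 0.164). In the other direction, Msn, the cytoskeletal linker moesin, differed by 0.58 ± 0.07 (adjusted p = 0.0977) and Cd44, the hyaluronan receptor, by 0.52 ± 0.11 (adjusted p = 0.187). Mcam, at 0.79 ± 0.26, is the third higher gene and was named after its value was seen. Without line 2, 7 of the 108 genes in these lists (6.48%) passed limma's adjusted test, close to the 5.23% of all genes that did: Il18 at -0.65, Alcam at -0.81 and Ncam2 at -0.80 fell, and Tnfrsf12a at 1.04, Ccl2 at 0.91, Gadd45b at 0.68 and Msn at 0.60 rose, with adjusted p from 0.00381 to 0.0336. Without line 7 or without line 8, 0 of them passed.

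**Figure D3:**
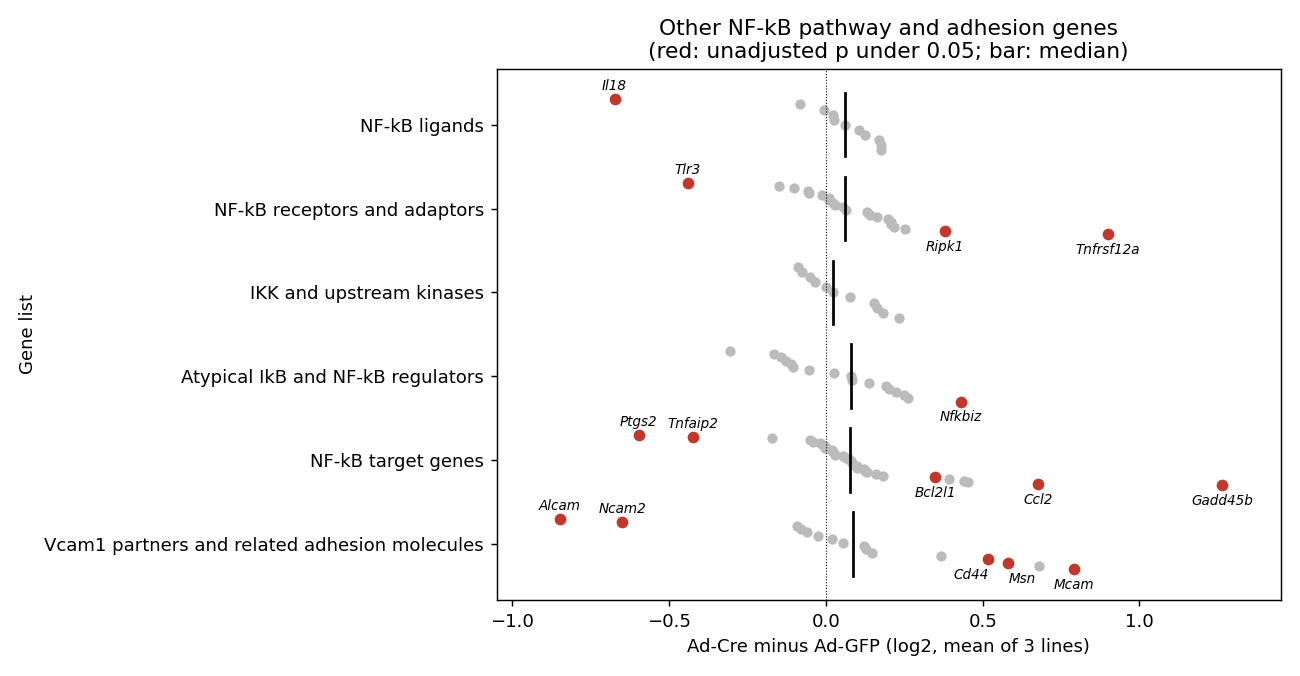
Difference between Ad-Cre and Ad-GFP (log2, mean of 3 lines, horizontal axis) of each measured gene in 6 lists, with genes of an unadjusted p under 0.05 in red and the list's median as a bar. The medians lie between 0.02 and 0.09, and the red points lie on both sides of 0.

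Genes most like a member were found by Pearson correlation over the 6 arrays, among 2335 genes that spanned at least 1 unit. With 6 arrays high values are common: 133 of 2334 genes correlated with Nfkbia above 0.95, 64 of 2335 with Nfkb2 and 14 of 2334 with Vcam1. For Vcam1 the nearest were Scg3 (0.987), Tcirg1 (0.984) and Hey2 (0.980), which differed between viruses by -1.04, -0.78 and -0.60. For Nfkbia they were Heatr7a (0.998), Lsm10 (0.997) and Tesc (0.997), and for Nfkb2 Ryr3 (0.997), Nfatc1 (0.991) and Cdc42ep3 (0.991). The points share lines and viruses, and the likeness is a description.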

How the data were processed

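RNA from 6 cultures was hybridised to 1 Affymetrix array each, with whole-transcript biotin labelling per the labels. The values the authors deposited are log2 signals, 1 for each probe set. The submitters' processing notes name RMA and Affymetrix Expression Console, with no version given in the sources used here. Because RMA puts all arrays on 1 distribution, a shift common to most genes cannot be seen, and background compresses differences of dim genes. No probe set positions were used.

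Of 269751 probe sets, 233753 carry 1 gene symbol in GEO's platform annotation, 5106 several and 30892 none. Tukey's median polish, run for up to 20 iterations, combined those with 1 symbol into 23152 genes. Groups came from titles. Ad-Cre was compared with Ad-GFP across all genes by limma 3.58.1 in R 4.3.3, with the line as a block (the series design gives each line each virus), a variance trend, two-sided tests and Benjamini-Hochberg adjustment at 0.05. The fit was tested on simulated data with noise of equal size in every gene and no outlying array. That test checks the code and not the p-values of these data. Same-numbered arrays deviated together from their virus mean (r = 0.226, 0.163 and 0.333 for lines 2, 7 and 8; other pairs -0.227 to 0.0029). The p-values set the mean virus difference against its spread between lines, with 1 culture per virus in each. That spread is moderated by limma with the spread of all genes.

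Members, lists and tests were chosen with earlier results of these data known. All members were described. Of each pathway list up to 4 genes of lowest p were named by rule (Tnf, Icam1, Ccl2, Mcam and the single marker genes were named outside it, after their values were seen), and the 3 genes most correlated with a member were given for the 3 members of lowest p. Of 181 list entries 178 matched, 2 by a synonym, and the others were not analysed here. The number of arrays limits the precision.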

Additional observations from a re-analysis of the deposited data

How the results depend on the processing

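Under 12 alternatives Vcam1, Nfkbia, Nfkb2, Rela, Relb and Rel kept their direction, but not all of these alternatives could turn it. Dropping the line as a block, making it a random block, dropping the variance trend and leaving out dim genes changed no member's difference. Leaving out a line cannot turn a gene whose lines all agree, as they did for Vcam1, Nfkbia, Nfkb2, Rela and Relb. For those genes the direction could turn only with other probe set summaries, other normalizations or the line 8 labels exchanged. Other than with the labels of line 8 exchanged, Vcam1 ranged from -1.52 to -1.10, Nfkbia from 0.69 to 1.02 and Nfkb2 from 0.44 to 0.61. The genes near 0 turned sign. When a line was left out, Nfkb1 ran from -0.094 to 0.047, Nfkbie from -0.053 to 0.14, Nfkbib from -0.037 to 0.043 and Tnfaip3 from -0.076 to 0.070. With the mean of probe sets Nfkbib read -0.024 and Tnfaip3 0.070, with the brightest probe set -0.17 and 0.026, and with the line 8 labels exchanged Tnfaip3 read 0.12. The cause was not tested.

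Without the replicate block (an unpaired fit) 82 genes had an adjusted p under 0.05, with the line as a random block 241, with the mean of probe sets 73, and with a line left out 0 to 1211 (1211 without line 2). Members past that threshold numbered 0 to 3 with a line left out, 3 without line 2 (Vcam1, Nfkbia and Nfkb2), and 0 in every other alternative, the unpaired fit included. Members higher at an unadjusted p under 0.05 numbered 3 with quantile normalization and 3 with no variance trend, where Rela had an unadjusted p of 0.0576 and 0.0605 (limma), 2 with the brightest probe set, 2 to 4 with a line left out and 0 with the line 8 labels exchanged, where 0 were lower, 1 was higher in all 3 lines and 418 genes had such a p. Of the 23152 genes, 2975 had an unadjusted p under 0.05 in either direction with quantile normalization. This number was 2950 with no variance trend, 2529 with the brightest probe set and 1949 to 4049 with a line left out. With a line left out, 1 to 2 members were lower in all lines that remained. The share of all genes that agreed over the lines was not computed for these settings. A fit on 2 lines has fewer residual degrees of freedom, but limma's moderation was estimated anew in each fit. Without line 2 the array that stood apart is also absent, so counts of different fits are not on the same footing. Dim probe sets limit Relb (5 of 18) and Tnfaip3 (3 of 12).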

Other observations

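A pair of genes around NF-kB and Vcam1 had opposite signs in different lines, which was common on these arrays. Of all genes 22.1% were higher and 16.2% lower in all 3 lines, and the others did not agree over the lines. Itga4, the integrin subunit that binds Vcam1, read 8.22, 8.32 and 8.73 with Ad-GFP in lines 2, 7 and 8. With Ad-Cre it read 7.24, 10.08 and 9.04, so that its differences were -0.97, 1.76 and 0.31. Ier3, an early response gene and NF-kB target, went the other way, at 8.82, 9.58 and 9.60 with Ad-GFP and 11.66, 8.47 and 9.20 with Ad-Cre. Each line has 1 array per virus, so a difference between lines in the effect of the virus could not be tested. These 2 genes were named after their values were seen.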
